A study of Homo sapiens with 8 samples.

Results

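The genes described here drive and carry out the cell division cycle. They are the 44 listed cell cycle and mitosis genes, taken by symbol from 18164 genes in the table, and all 44 were found. The list was set with earlier results of these data known. By role, 7 were classed under G1 and entry into S phase, 13 under S phase and 24 under G2 phase and mitosis (G2/M). The values come from 8 tumors of HCC1937, a human cell line of triple-negative breast cancer, implanted in the mammary fat pads of immunodeficient NCG mice. Mice carrying tumors received either the NAD+ precursor nicotinamide mononucleotide (NMN, 500 mg/kg/day, 4 tumors) or vehicle (4 tumors). The tumors are called NMN 1 to 4 and Vehicle 1 to 4. All 8 share the cell line and the host strain, the labels give no age of the mice, and nothing states that each tumor came from its own mouse. The p-values therefore cover only how far these samples spread, which may be technical. The series carries a title that links NAD+ supplementation to metastasis, SIRT1 and P66Shc, and the comparison here asks how the division program of the tumors stood under NMN.

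A dividing cell passes through G1, copies its DNA in S phase and separates the copies in mitosis. Cyclins bind and switch on cyclin-dependent kinases (CDKs), which release E2F factors from the retinoblastoma protein RB and so turn on the genes of DNA replication. Later in the cycle the MYBL2 and FOXM1 factors turn on the mitotic genes, many of which are held silent in resting cells by the DREAM complex through a promoter element called CHR. In whole tumors the transcripts of these genes are widely used as a measure of how many cells are dividing. In bulk RNA a smaller share of dividing cells and less RNA per dividing cell cannot be told apart.

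The label of the tissue was checked first. The epithelial gene EPCAM lay between 91.0 and 181.5 TPM, and the basal keratin gene KRT5 between 2817 and 6488 TPM. TPM is a level per length of transcript, scaled to the same total in each library. The progesterone receptor gene PGR reached at most 0.02 TPM, the estrogen receptor gene ESR1 lay between 3.37 and 6.00 TPM, and ERBB2 between 77.6 and 130.03 TPM. Read depth is not kept by TPM and is unknown here. Libraries had 16451 to 16662 genes above 0. The summed level of 15 skeletal muscle markers was 32.7 to 52.2 TPM in NMN 1, NMN 2 and NMN 3, 799.7 TPM in NMN 4 and 548 to 3009 TPM in the Vehicle tumors, and all 15 had the lower mean in NMN tumors. NMN 4 thus lay with the Vehicle tumors in this list, and 0 of the 15 passed the limma test described below (adjusted p 0.226 to 0.442). At an unadjusted p under 0.05 in that test all 15 were lower in NMN tumors, against 2.15% of all genes. Their median log2 fold change of NMN over Vehicle was -3.17, and that of ACTA1, -5.76, was the lowest of all 13358 genes tested. The 12 fibroblast markers summed to 144 to 263 TPM in NMN and 214 to 332 TPM in Vehicle tumors. The 8 myeloid markers in the table summed to 53.8 to 92.9 and 56.7 to 79.0 TPM, the 7 adipocyte markers to 40.3 to 253 and 33.5 to 133 TPM, and the 8 endothelial markers to 5.93 to 8.10 and 4.23 to 6.80 TPM. Lower means in NMN tumors were found for 6 of 6 tested fibroblast, 1 of 2 endothelial, 5 of 7 myeloid and 2 of 4 adipocyte markers. Several defining markers were near 0: DCN reached at most 0.02 TPM, LUM 0.05, PECAM1 0.98, PTPRC 0.39 and ADIPOQ 0.03. The part of these cell types in the values below was not tested.

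Promoters of cell cycle genes are known for a few short elements, CHR, the CCAAT box and E2F sites. Of the 44 members, 33 had entries in the RefSeq promoter table (build GRCh38.p14), and CCND1, CCNE2, CDK2, MCM4, MCM5, AURKA, FOXM1, UBE2C, TTK, BIRC5 and TPX2 did not. The 250 bases before each start were searched on both strands for CHR (TTTGAA or TTCGAA), for the CCAAT box (CCAAT), and for E2F sites (TTTCCCGC, TTTCGCGC, TTTGCCGC or TTTGGCGC). No motif contains another, although matches of different motifs can overlap. CHR stood in 10 of 23 windows of G2/M members (43.5%), in 2 of 15 of S phase members (13.3%), in 0 of 4 of G1 and G1/S entry members, and in 14.3% of all 35116 windows. E2F letters showed the opposite order, in 3 of 4 windows of G1 and G1/S entry members (75%), 7 of 15 of S phase members (46.7%), 2 of 23 of G2/M members (8.70%) and 2.79% of all windows. The CCAAT box was in 19 of 23 G2/M windows (82.6%), 12 of 15 S phase windows (80%), 2 of 4 G1 and G1/S entry windows (50%) and 32.0% of all windows. Some genes have several windows, so windows are not independent, and a match is a description and not a shown binding site.

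Shown here are the windows of the 3 G2/M and 2 S phase members with the smallest p in the comparison of NMN with Vehicle. Each runs 5′ to 3′ in the direction of the gene, and capitals mark the motifs searched. The windows follow RefSeq starts, which differ from the gene bounds of GENCODE 29 given with the values.
PLK1 (chr16:23678639-23678888, plus strand): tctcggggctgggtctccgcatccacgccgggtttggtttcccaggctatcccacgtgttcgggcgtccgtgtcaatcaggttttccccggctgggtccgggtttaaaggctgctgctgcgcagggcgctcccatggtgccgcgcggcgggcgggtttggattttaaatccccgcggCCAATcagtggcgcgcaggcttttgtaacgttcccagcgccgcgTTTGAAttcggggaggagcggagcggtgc
BUB1 (chr2:110678064-110678313, minus strand): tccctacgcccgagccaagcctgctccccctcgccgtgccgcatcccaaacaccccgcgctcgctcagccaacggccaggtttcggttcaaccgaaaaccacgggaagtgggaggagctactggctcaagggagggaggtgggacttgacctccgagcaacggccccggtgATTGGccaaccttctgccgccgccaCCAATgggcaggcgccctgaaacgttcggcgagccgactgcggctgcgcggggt
CCNB1 (chr5:69166900-69167149, plus strand): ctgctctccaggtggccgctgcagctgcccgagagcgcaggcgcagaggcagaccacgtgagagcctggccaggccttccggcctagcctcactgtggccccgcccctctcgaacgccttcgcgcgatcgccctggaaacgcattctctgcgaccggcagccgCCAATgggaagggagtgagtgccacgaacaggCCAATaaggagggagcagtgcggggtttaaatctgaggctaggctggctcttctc
CDT1 (chr16:88803539-88803788, plus strand): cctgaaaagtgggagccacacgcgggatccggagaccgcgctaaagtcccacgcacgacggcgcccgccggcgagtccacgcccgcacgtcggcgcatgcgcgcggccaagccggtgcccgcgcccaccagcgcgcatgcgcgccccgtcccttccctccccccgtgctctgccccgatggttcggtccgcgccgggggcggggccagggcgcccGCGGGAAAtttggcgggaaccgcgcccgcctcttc
RRM1 (chr11:4094435-4094684, plus strand): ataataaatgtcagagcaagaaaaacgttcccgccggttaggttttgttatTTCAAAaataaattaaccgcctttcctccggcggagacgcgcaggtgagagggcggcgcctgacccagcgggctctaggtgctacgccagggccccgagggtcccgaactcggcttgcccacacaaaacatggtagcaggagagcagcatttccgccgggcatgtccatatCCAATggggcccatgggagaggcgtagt

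In PLK1 the CHR letters begin 29 bases and the CCAAT box 73 bases before the start. BUB1 and CCNB1 each carry a pair of CCAAT boxes, 1 of those of BUB1 read on the other strand, and neither window holds the CHR letters searched. Other forms of CHR, and bases past the start, were not searched, so the lack of a match does not show that CHR is absent. CDT1 carries E2F letters on the other strand, 35 bases before the start. RRM1 has CHR letters at 199 bases and a CCAAT box at 28 bases before the start.

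All 44 members were expressed well above the filter of at least 1 TPM in at least 4 libraries, and all were tested. Mean levels over the 8 tumors ran from 11.8 TPM (CDC25A) to 152 TPM (CCND1) in the G1 and G1/S entry class. They ran from 28.9 TPM (GINS2) to 600.2 TPM (PCNA) in the S phase class and from 9.89 TPM (CENPE) to 288 TPM (UBE2C) in the G2/M class. The highest tumor exceeded the lowest by a median of 1.47-fold per member, with extremes of 1.26-fold for MCM3 and 2.42-fold for CCND1. Together the members made up 0.316% to 0.400% of all TPM in NMN tumors and 0.331% to 0.404% in Vehicle tumors.

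Between NMN and Vehicle tumors no member passed the test, a limma model fitted to log2(TPM + 1) of 13358 genes with adjusted p under 0.05 as the threshold. In that fit 0 of all 13358 genes passed, or 0%. Without NMN 4 the number was 53, without Vehicle 3 it was 1, and with library weights it was 54, with 0 members among them in each case. PLK1 was the 1 member of 44 at an unadjusted p under 0.05. It was lower in NMN tumors, where 2.15% of all genes were lower at that p and 4.79% were higher. Means were lower in NMN tumors for 35 of 44 members, against 49.0% of all genes: 4 of 7 in the G1 and G1/S entry class, 10 of 13 in the S phase class and 21 of 24 in the G2/M class. Many members were low or high in the same tumors, so these are not counts of independent genes. The median log2 fold change of NMN over Vehicle was -0.11 over the members, with -0.04, -0.11 and -0.14 in the 3 classes, against 0.00 over all genes. The 95% intervals of all 44 members lay between -0.78 (CCND1) and 0.40 (CDC25A) on the log2 scale, and 1 interval, that of PLK1, did not include 0. The members' median was -0.05 without NMN 3, -0.19 without NMN 4 and -0.18 without Vehicle 2, so single tumors moved it by more than 1.5 times. Without NMN 4 the number of members at an unadjusted p under 0.05 was 10, all lower, or 22.7%, where 4.83% of the genes tested in that fit were lower at that p and 4.62% higher. The NMN tumors left in that fit had muscle markers that summed to 32.7 to 52.2 TPM, against 548 to 3009 TPM in Vehicle tumors. Treatment and muscle level cannot be told apart there. Without Vehicle 2 the number of members at that p was 4, or 9.09%, against 2.63% of genes tested in that fit that were lower at that p. Without NMN 1 it was 2, or 4.55%, against 1.42%, and in both fits all were lower. It was 0 without NMN 3, Vehicle 1 or Vehicle 4, against 1.40%, 2.88% and 2.19% of genes lower. With quantile normalization 5 members were lower at that p, or 11.4%, against 3.81%. With library weights 6 were, or 13.6%, against 4.75%.

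**Figure D1:**
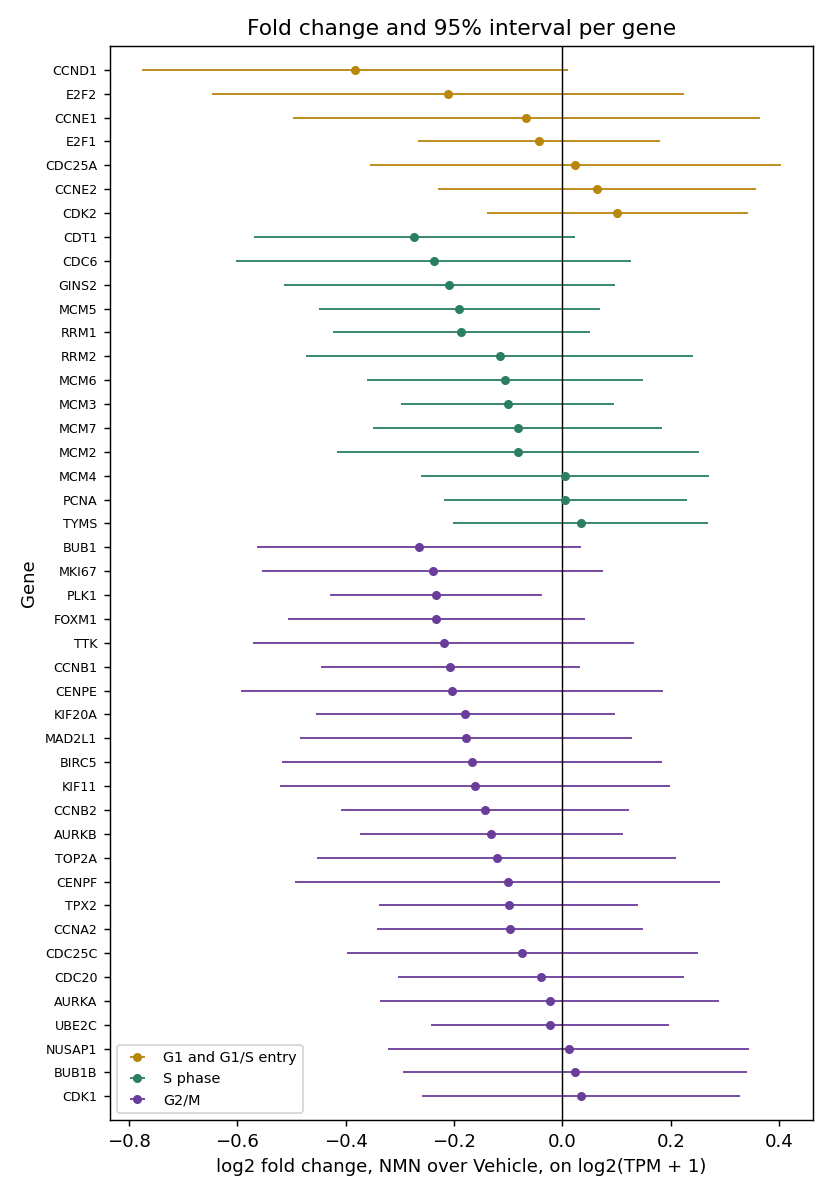
Log2 fold change of NMN over Vehicle on log2(TPM + 1) for each of the 44 members (x axis), with its 95% interval as a line, grouped by phase class and ordered within it (y axis). Most points lie left of 0, and the interval of PLK1 is the 1 that does not cross 0.

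Entry into the cycle is led by D and E cyclins. CCND1, which encodes cyclin D1, the partner of CDK4 and CDK6 (chromosome 11, 69641087 to 69654474, plus strand), was the highest of this class. Its level was 160.4, 142, 160.4 and 223 TPM in Vehicle 1 to 4 and 137, 92.0, 133 and 166 TPM in NMN 1 to 4. NMN 1 to 3 lay below all Vehicle tumors, whereas NMN 4 lay among them. The log2 fold change was -0.38 ± 0.18 (SE), the lowest of the 44 (limma adjusted p = 0.741, exact permutation p = 0.171).

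CCNE1 encodes cyclin E1, which activates CDK2 at the start of S phase (chromosome 19, 29811898 to 29824308, plus strand). It stood at 28.4, 28.7, 23.3 and 40.8 TPM in Vehicle 1 to 4 and at 41.1, 24.8, 25.2 and 24.9 TPM in NMN 1 to 4. One tumor of each group, Vehicle 4 and NMN 1, was high and the other 6 were close together, so the groups overlapped (log2 fold change -0.07 ± 0.20, adjusted p = 0.984). The second E cyclin gene, CCNE2, was at 78.5 ± 13.2 TPM (SD, n = 4) in NMN and 74.8 ± 9.95 TPM in Vehicle tumors. CDK2 was at 70.6, 54.8, 68.7 and 70.4 TPM in Vehicle 1 to 4 and at 76.1, 63.5, 70.9 and 72.6 TPM in NMN 1 to 4. Its log2 fold change of 0.10 ± 0.11 was the highest of the 44 and did not pass either (adjusted p = 0.951). CDC25A, the phosphatase that removes the inhibitory phosphates of CDK2, was at 12.0 ± 2.71 against 11.6 ± 1.56 TPM.

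E2F1 and E2F2 encode activating E2F factors, and the groups overlapped in both. E2F1 was at 85.3, 80.4, 93.2 and 79.3 TPM in Vehicle 1 to 4 and at 89.7, 72.7, 77.8 and 88.4 TPM in NMN 1 to 4 (log2 fold change -0.04 ± 0.10, 95% interval -0.27 to 0.18). E2F2 was at 18.99, 16.6, 22.4 and 24.6 TPM and at 20.1, 11.8, 16.8 and 23.4 TPM (log2 fold change -0.21 ± 0.20). NMN 2 was the lowest of the 8 tumors in both, as it was in 4 of the 7 genes of this class, and NMN 1 was the highest in 4.

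Replication origins are licensed before S phase and fired in it, and the S phase class holds genes of both steps. CDT1, which loads the MCM helicase onto origins (chromosome 16, 88803213 to 88809258, plus strand), was at 58.1, 56.9, 56.1 and 62.3 TPM in Vehicle 1 to 4 and at 57.0, 37.1, 45.1 and 55.8 TPM in NMN 1 to 4. NMN 2 and NMN 3 were low, while NMN 1 and NMN 4 stood close to the Vehicle tumors. The log2 fold change was -0.27 ± 0.14 (adjusted p = 0.766, exact permutation p = 0.0857). Its partner CDC6 was at 34.6 ± 7.74 TPM in NMN and 40.6 ± 6.10 TPM in Vehicle tumors (log2 fold change -0.24 ± 0.17).

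The 6 subunits of the MCM2 to MCM7 helicase, which unwinds DNA ahead of the replication fork, had log2 fold changes from -0.19 for MCM5 to 0.00 for MCM4. MCM5 was at 73.4, 67.0, 82.7 and 78.2 TPM in Vehicle 1 to 4 and at 69.2, 54.7, 64.3 and 76.7 TPM in NMN 1 to 4 (adjusted p = 0.860). MCM2, MCM3, MCM6 and MCM7 had log2 fold changes of -0.08 ± 0.15, -0.10 ± 0.09, -0.11 ± 0.12 and -0.08 ± 0.12. No subunit separated the groups. GINS2, a part of the active helicase, was at 26.9 ± 5.15 TPM against 30.9 ± 2.72 TPM, with NMN 4, at 34.1 TPM, the highest of the 8.

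PCNA, the sliding clamp of the DNA polymerases (chromosome 20, 5114953 to 5126626, minus strand), was the most abundant member. It was at 575 TPM in Vehicle 1, 521 in Vehicle 2, 661 in Vehicle 3 and 642 in Vehicle 4, and at 617, 651, 539 and 596 TPM in NMN 1 to 4. The groups were interleaved (log2 fold change 0.01 ± 0.10, 95% interval -0.22 to 0.23). Among the enzymes that supply nucleotides, the ribonucleotide reductase gene RRM1 was at 101 TPM in Vehicle 1, 93.7 in Vehicle 2, 99.4 in Vehicle 3 and 119 in Vehicle 4, and at 92.1, 84.5, 82.4 and 104 TPM in NMN 1 to 4. NMN 1 to 3 again lay below the Vehicle tumors and NMN 4 among them (log2 fold change -0.19 ± 0.11, adjusted p = 0.836). Its second subunit RRM2 had a log2 fold change of -0.12 ± 0.16, and the thymidylate synthase gene TYMS one of 0.03 ± 0.11.

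**Figure D2:**
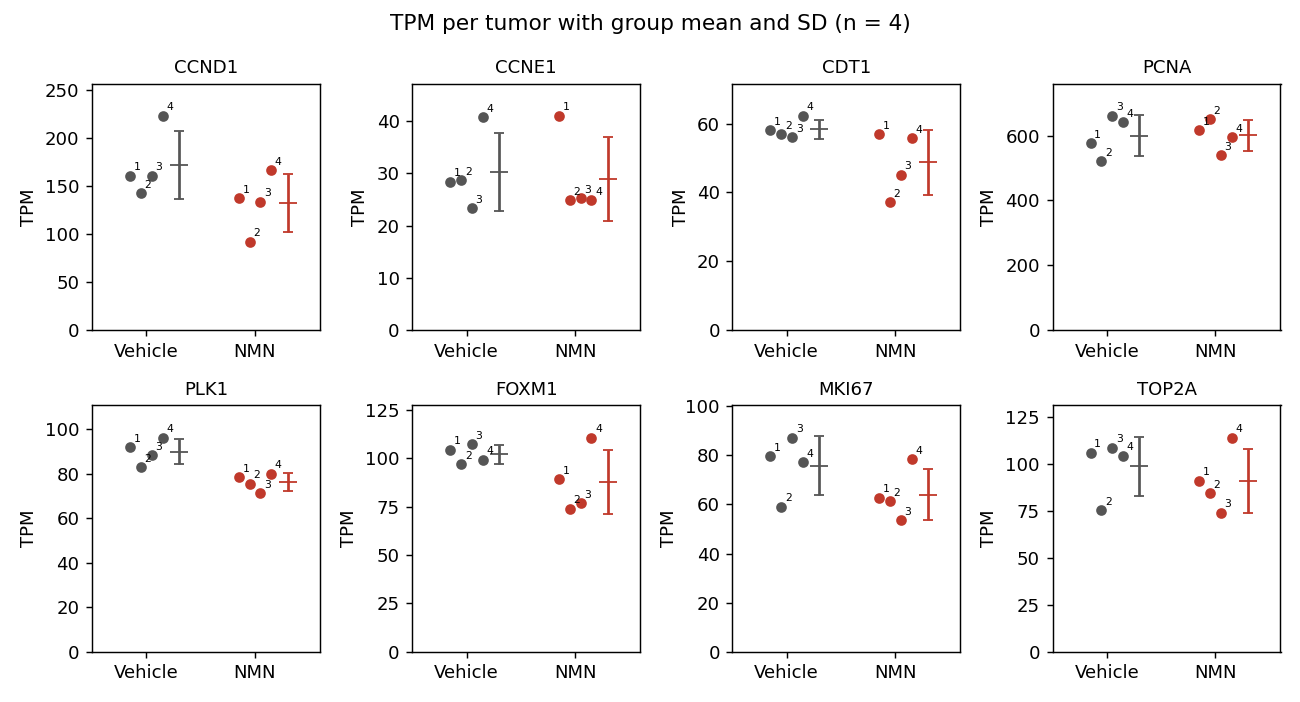
TPM per tumor (y axis, from 0) in Vehicle and NMN tumors (x axis) for 8 members, each point 1 tumor with its number, and the group mean with its SD (n = 4) beside it. The points of PLK1 do not overlap between the groups, and those of the other 7 genes do. In MKI67 and TOP2A Vehicle 2 stands below the rest of its group, and NMN 4 above the rest of its group.

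Among the G2/M genes PLK1 was the 1 member of all 44 whose groups did not overlap, where 0.966% of all genes were apart with lower and 2.08% with higher levels in NMN tumors. PLK1 encodes Polo-like kinase 1, which drives mitotic entry, centrosome maturation and spindle assembly (chromosome 16, 23677656 to 23690367, plus strand). It was at 91.9, 83.1, 88.5 and 96.3 TPM in Vehicle 1 to 4 and at 78.5, 75.6, 71.2 and 80.1 TPM in NMN 1 to 4. All 4 NMN tumors, NMN 4 included, lay below the lowest Vehicle tumor. NMN over Vehicle was -0.23 ± 0.09 on the log2 scale, 0.851-fold, and its 95% interval reached from -0.43 to -0.04 (adjusted p = 0.601). The exact two-sided permutation test gave p = 0.0286, the smallest that 4 tumors against 4 allow, for the gene that is itself the lowest in p of the 44. Part of an exon of PLK1 overlaps ERN2 on the opposite strand.

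The kinase gene BUB1, of the spindle checkpoint, was at 30.3, 26.0, 30.6 and 33.9 TPM in Vehicle 1 to 4 and at 25.4, 23.8, 20.8 and 30.6 TPM in NMN 1 to 4 (log2 fold change -0.27 ± 0.14, adjusted p = 0.799). CCNB1, which encodes the mitotic cyclin B1, was at 87.1, 75.7, 89.0 and 81.5 TPM and at 76.2, 67.4, 62.8 and 83.1 TPM (log2 fold change -0.21 ± 0.11, adjusted p = 0.805). In both genes NMN 3 was the lowest of the 8 tumors, and NMN 4 lay within the Vehicle values. The factor gene FOXM1 was at 104, 96.95, 107 and 99.2 TPM in Vehicle 1 to 4 and at 89.3, 73.99, 76.9 and 111 TPM in NMN 1 to 4 (log2 fold change -0.23 ± 0.12, adjusted p = 0.807). Here NMN 1 to 3 were below every Vehicle tumor and NMN 4 above every one.

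The proliferation marker gene MKI67, which encodes Ki-67, was at 79.6, 59.0, 87.3 and 77.3 TPM in Vehicle 1 to 4 and at 62.7, 61.4, 53.6 and 78.5 TPM in NMN 1 to 4. Vehicle 2 stood with NMN 1 to 3, and NMN 4 with the other Vehicle tumors. NMN over Vehicle was -0.24 ± 0.14 on the log2 scale, and its 95% interval reached from -0.55 to 0.08 (adjusted p = 0.851, exact permutation p = 0.257). TOP2A, the topoisomerase that untangles sister chromatids, was at 106, 75.5, 109 and 105 TPM and at 91.0, 84.4, 73.97 and 114 TPM, with the same tumors low and high (log2 fold change -0.12 ± 0.15). CDK1, the kinase that triggers mitosis, was at 74.9, 56.3, 69.7 and 55.2 TPM and at 70.6, 66.1, 53.2 and 72.1 TPM (log2 fold change 0.04 ± 0.13, 95% interval -0.26 to 0.33). UBE2C, the ubiquitin-conjugating enzyme of the anaphase-promoting complex, was at 299, 258, 307 and 296 TPM and at 289, 288, 248 and 319.9 TPM (log2 fold change -0.02 ± 0.10). The groups overlapped in each of these 4 genes.

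The other G2/M members did not separate the groups either. The cyclin genes CCNA2 and CCNB2 had log2 fold changes of -0.10 ± 0.11 and -0.14 ± 0.12, and CDC25C, the phosphatase that activates CDK1, one of -0.07 ± 0.15. Of the spindle checkpoint genes, TTK and MAD2L1 had -0.22 ± 0.16 and -0.18 ± 0.14, and BUB1B 0.02 ± 0.14. The kinase genes AURKA and AURKB had -0.02 ± 0.14 and -0.13 ± 0.11, and BIRC5, a partner of AURKB in the chromosomal passenger complex, -0.17 ± 0.16. The kinetochore genes CENPE and CENPF had -0.20 ± 0.18 and -0.10 ± 0.18, the kinesin genes KIF11 and KIF20A -0.16 ± 0.16 and -0.18 ± 0.13, and the spindle assembly genes TPX2 and NUSAP1 -0.10 ± 0.11 and 0.01 ± 0.15. CDC20, the activator of the anaphase-promoting complex, had -0.04 ± 0.12. The smallest adjusted p of the G2/M class was the 0.601 of PLK1.

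Single tumors were low or high across many members at once. NMN 3 was the lowest of the 8 tumors in 21 of the 44 members and in 16 of the 24 of the G2/M class. NMN 2 was the lowest in 13, among them 6 of the 13 S phase members, and Vehicle 2 in 8. The highest values were in Vehicle 3 (12 members), Vehicle 4 (10), Vehicle 1 (9), NMN 4 (9) and NMN 1 (4). The lowest and highest tumor were not counted over all genes, so these counts may partly follow the scale of each library. NMN 3 lay below every Vehicle tumor in 31 of 44 members, or 70.5%, against 19.1% of all genes. For NMN 2 this was so in 20 members, or 45.5%, against 32.1%, and for NMN 1 in 9, or 20.5%, against 15.4%. NMN 4 lay below every Vehicle tumor in 2 members, CDT1 and PLK1, against 5.43% of all genes, within their range in 32 and above it in 10, or 22.7%, against 32.3%. In 8 members NMN 1 to 3 were all below every Vehicle tumor, against 6.15% of all genes: CCND1, RRM1, GINS2, PLK1, BUB1, FOXM1, KIF20A and MAD2L1. NMN 4 was also the NMN tumor with the high summed level of muscle markers, 799.7 TPM, whose part in these counts was not tested.

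**Figure D3:**
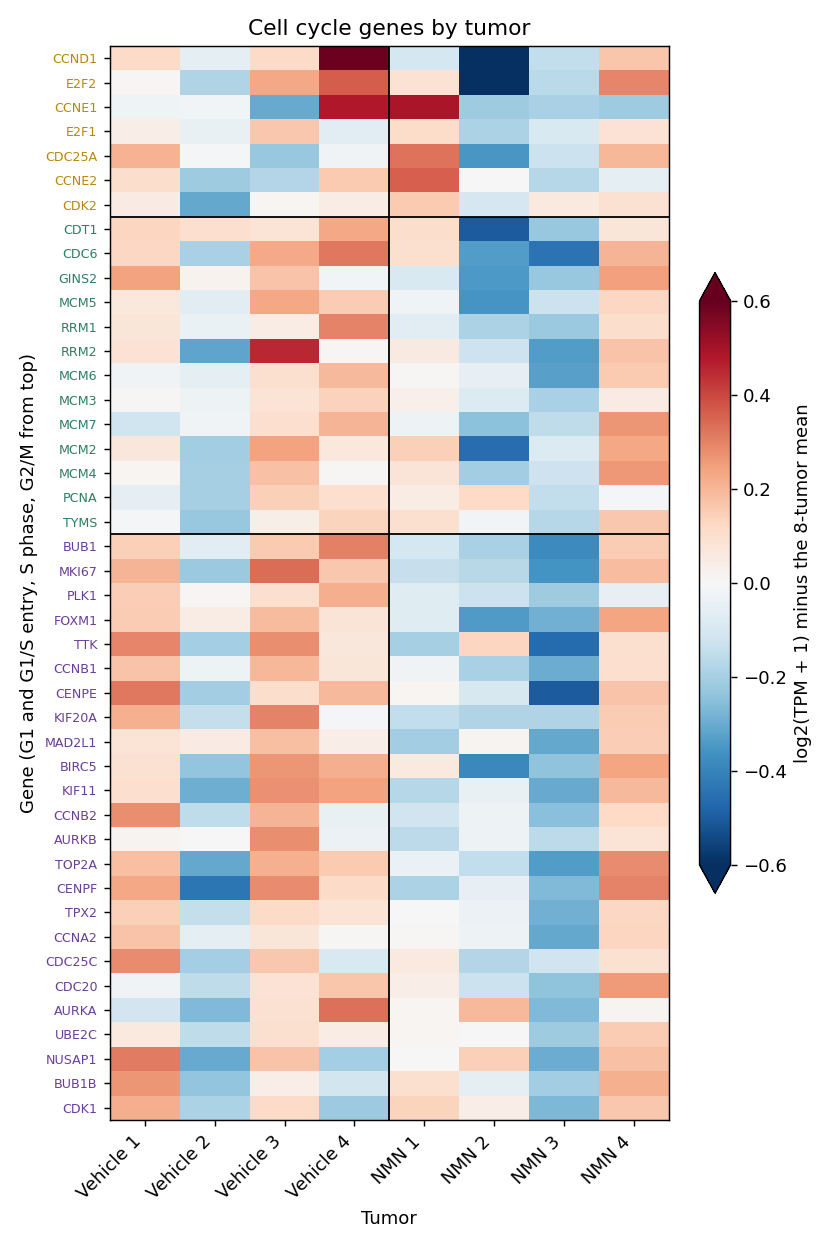
Heat map of the deviation of log2(TPM + 1) from the mean over the 8 tumors (colour, in log2 units, with values past 0.6 in the end colours) for each member (rows, by class) and tumor (columns). The column of NMN 3 is blue in nearly all rows, those of Vehicle 1, Vehicle 3 and NMN 4 are mostly red, and those of Vehicle 2 and NMN 2 are mostly blue.

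Each class was also summarised per tumor as a score, the mean over its members of the deviation of log2(TPM + 1) from the 8-tumor mean. The G2/M score was 0.16, -0.16, 0.18 and 0.07 in Vehicle 1 to 4 and -0.05, -0.08, -0.28 and 0.16 in NMN 1 to 4. The S phase score was 0.05, -0.11, 0.16 and 0.14 in Vehicle 1 to 4 and 0.03, -0.21, -0.21 and 0.16 in NMN 1 to 4. NMN 3 had the lowest G2/M score, NMN 2 and NMN 3 had the lowest S phase scores, and both scores overlapped between the groups. The G1 and G1/S entry score was 0.07, -0.12, -0.03 and 0.22 and then 0.20, -0.31, -0.12 and 0.08, with NMN 2 the lowest. The S phase score minus the G2/M score ran from -0.14 in NMN 2 to 0.08 in NMN 1, and from -0.12 in Vehicle 1 to 0.07 in Vehicle 4. This difference of transcript scores thus overlapped between the groups, and the share of cells in each phase was not measured.

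The scores were read beside the scale of each library. The median-of-ratios factor, which compares each library's typical gene with that of the others, was 1.03, 0.921, 1.07 and 0.98 in Vehicle 1 to 4 and 1.01, 0.922, 1.003 and 1.10 in NMN 1 to 4. It was low in Vehicle 2 and NMN 2 and high in NMN 4 and Vehicle 3. After scaling by it the G2/M score was 0.12, -0.04, 0.09 and 0.11 in Vehicle 1 to 4 and -0.06, 0.04, -0.28 and 0.02 in NMN 1 to 4. That of NMN 2 thus changed sign, that of NMN 3 stayed the lowest, and those of Vehicle 2 and NMN 4 came closer to 0. The S phase score of NMN 2 was -0.10 after scaling and that of NMN 3 -0.21. The difference of the group means of the G2/M score was -0.13 with the deposited values and -0.14 after scaling. Scaling moved the counts against the Vehicle range in the same direction in the members and in all genes. NMN 4 lay above every Vehicle tumor in 1 member after scaling, or 2.27%, against 15.6% of all genes, and below in 11, or 25%, against 16.0%. NMN 3 lay below in 37 members, or 84.1%, against 21.9% of all genes. NMN 1 lay below in 15, or 34.1%, against 18.5%, and NMN 2 in 16, or 36.4%, against 20.8%. After scaling 8 members, or 18.2%, were lower at an unadjusted p under 0.05 (PLK1, BUB1, CCNB1, FOXM1, MKI67, CCND1, CDT1 and MCM5), where 3.31% of all genes were lower and 5.12% higher at that p. Of the 44, 0 passed after adjustment.

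**Figure D4:**
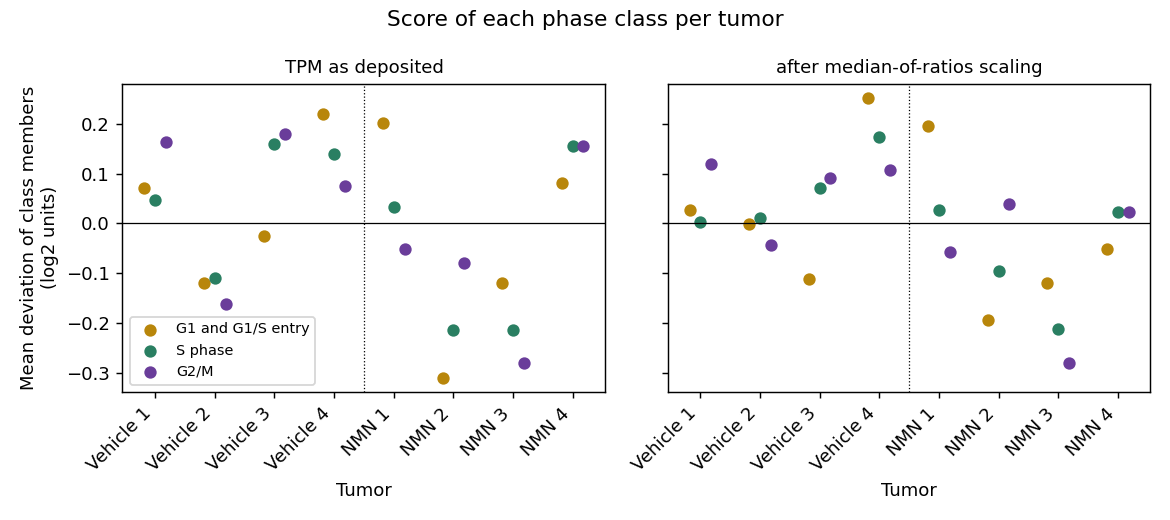
Score of each phase class (colours; y axis, in log2 units) in each tumor (x axis), with the deposited TPM on the left and after median-of-ratios scaling on the right. NMN 3 is the lowest tumor for the G2/M class in both panels, while after scaling Vehicle 2 and NMN 4 move toward 0 for that class and NMN 2 changes sign.

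Genes of the same program outside the 44 were counted in the same fit. Of 56 other G2/M genes, all tested, 49 averaged lower under NMN, against 49.0% of all genes, and 0 passed. Their median log2 fold change was -0.13. CENPN, a protein of the inner kinetochore, had the lowest fold change among them, at 60.6, 48.5, 57.8 and 66.3 TPM in Vehicle 1 to 4 and 42.3, 42.1, 36.6 and 55.7 TPM in NMN 1 to 4 (log2 fold change -0.40 ± 0.14, adjusted p = 0.531). The condensin gene NCAPD2 had -0.19 ± 0.11. Of 43 other S phase genes 32 averaged lower and 0 passed, and their median was -0.04. DBF4, which activates the kinase CDC7 at origins, had -0.30 ± 0.18, and SLBP, which binds histone messenger RNA, 0.16 ± 0.10.

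The CDK inhibitors are the brakes of the cycle. Of their 7 genes 5 averaged higher under NMN, against 6816 of all 13358 genes, and 0 passed. Their median log2 fold change was 0.16. CDKN2D, which encodes the CDK4 and CDK6 inhibitor p19, was at 13.7, 14.5, 17.1 and 14.5 TPM in Vehicle 1 to 4 and at 18.1, 18.2, 19.95 and 19.2 TPM in NMN 1 to 4. Its groups did not overlap (log2 fold change 0.32 ± 0.12, adjusted p = 0.577), where 2.08% of all genes were apart with higher levels in NMN tumors. CDKN1B, the p27 gene, was at 81.1 ± 6.76 against 65.96 ± 15.5 TPM (log2 fold change 0.32 ± 0.15, adjusted p = 0.748). CDKN1A, the p21 gene, was at 342 ± 59.0 against 336 ± 85.1 TPM, and CDKN2A at 345 ± 35.2 against 362 ± 19.2 TPM.

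Of 18 RB, E2F and DREAM regulators 10 had the lower and 8 the higher mean, and 0 passed. E2F5, an E2F factor that mostly represses, was at 5.58, 4.85, 4.95 and 3.55 TPM in Vehicle 1 to 4 and at 6.59, 6.69, 10.0 and 8.87 TPM in NMN 1 to 4. Its lowest NMN value exceeded its highest Vehicle value (log2 fold change 0.65 ± 0.18, adjusted p = 0.348), as in 2.08% of all genes. E2F4, another repressor, had -0.18 ± 0.12, and RB1 was at 25.5 ± 3.27 against 27.3 ± 2.55 TPM. Of 16 tested cyclins, CDKs and switch kinases outside the members 10 had the lower and 6 the higher mean, and 0 passed. The kinases that hold CDK1 inactive differed in sign, with WEE1 at 0.24 ± 0.13 and PKMYT1 at -0.24 ± 0.17 on the log2 scale.

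Exons of 15 of the 44 members overlap another protein-coding gene in GENCODE 29, in most cases on the opposite strand. Among them are PLK1 with ERN2, CCND1 with LTO1, FOXM1 with ITFG2, TYMS with ENOSF1 and KIF20A with CDC23. Whether the libraries kept strand is not stated in the labels or file header. If they did not, the genes of an opposite-strand pair cannot be told apart where they overlap. Those of a same-strand pair cannot in either case.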

How the data were processed

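Whole-tumor RNA from 8 tumors, 4 NMN and 4 Vehicle by their titles, was measured by RNA sequencing. TPM per gene were deposited by the authors in 1 table, with the unit per the file headers. RSEM 1.2.8, HISAT2 2.1.0, Bowtie2 2.2.5 and GRCh38.p13 appear, without roles, in the processing notes of the submitters. How mouse reads were treated was not given in the sources used here. Each library sums to about 1000000, so depth is unknown and intervals of counting error cannot be had.

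Genes with at least 1 TPM in at least 4 libraries (13358) were tested with limma 3.58.1 in R 4.3.3 on log2(TPM + 1), with a variance trend and group as the only term, two-sided, with Benjamini-Hochberg adjustment over all of them. Fold changes are on that scale, which understates changes of low genes, and are given ± standard error. Levels are mean ± SD (n = 4). Single genes were also compared by an exact permutation test (scipy 1.17.1). Alternatives were pseudocounts of 0.1 and 5, no filter and 5 TPM, median-of-ratios scaling, quantile normalization, no variance trend, a replicate block, weights per library and each tumor left out. Coordinates are from GENCODE 29 on GRCh38.

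The members, the classes, the other gene lists and the tests were chosen with earlier results of these data known. Given per tumor by rule were, in each class, the 3 members with the smallest p, the most abundant and any whose groups do not overlap, and MKI67, TOP2A, PCNA, CCND1, CCNE1, CCNB1, CDK1, PLK1, E2F1 and FOXM1. Of each other list the 2 genes with the smallest p are named, and RB1, CDKN1A and CDKN2A.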

Additional observations from a re-analysis of the deposited data

Results flagged for a closer look

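In each group of 4, the tumor farthest out was compared with the rest. Of 96 groups examined (44 members and 4 class scores in both groups), 6 held a tumor whose gap to its neighbor, as a share of the range, passed the critical value of Dixon's test, and chance alone flags about 1 in 20. CCNE1 was at 41.1 TPM in NMN 1, with the other NMN tumors between 24.8 and 25.2. CDK2 was at 54.8 TPM in Vehicle 2, with the others from 68.7 to 70.6. AURKB was at 49.2 TPM in Vehicle 3, with the others from 39.4 to 40.8. KIF20A was at 55.98 TPM in NMN 4, with the others from 44.2 to 45.4. TOP2A was at 75.5 TPM in Vehicle 2, with the others from 104.6 to 109. The score of all 44 members was -0.140 in Vehicle 2, with the other Vehicle tumors from 0.11 to 0.14, and that library's median-of-ratios factor was 0.921.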

How the results depend on the processing

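Over all genes, 0 passed in the fit as reported, 54 with library weights, and 0 to 53 with 1 tumor left out (53 without NMN 4, 1 without Vehicle 3). The same replicate numbers gave no sign of pairing, with correlations from -0.123 to 0.0258 over the 4 pairs and 0 NMN tumors closest to their own number, and with the number as a replicate block 2 genes passed. Of the 44 members 0 passed under any of the 17 alternatives. The members' median log2 fold change lay between -0.19 and -0.05 over the tumors left out. That of the G2/M class ran from -0.23 (without Vehicle 2) to -0.08 (without NMN 3). That of the S phase class ran from -0.19 (without NMN 4) to -0.05 (without NMN 3). The G1 and G1/S entry class had its lowest median, -0.09, without NMN 1, its highest, 0.02, without Vehicle 4, and one of 0.14 with library weights. PLK1 kept a log2 fold change between -0.27 and -0.20 throughout, and 28 of 44 members kept their sign in every alternative. After scaling, MCM4 was at -0.0065 and PCNA at -0.0060, and PCNA was at -0.018 after quantile normalization. With library weights CCNE1 was at 0.21, BUB1B at -0.0034 and NUSAP1 at -0.086.

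With 1 tumor left out, the log2 fold change ranged from -0.12 to 0.083 for AURKA, -0.052 to 0.12 for BUB1B, -0.24 to 0.082 for CCNE1, -0.044 to 0.13 for CCNE2, -0.13 to 0.035 for CDC20, -0.082 to 0.14 for CDC25A, -0.15 to 0.0073 for CDC25C and -0.031 to 0.13 for CDK1. It ranged from -0.087 to 0.013 for E2F1, -0.17 to 0.058 for MCM2, -0.082 to 0.074 for MCM4, -0.087 to 0.12 for NUSAP1, -0.061 to 0.056 for PCNA, -0.24 to 0.016 for RRM2, -0.036 to 0.096 for TYMS and -0.077 to 0.045 for UBE2C. The cause of these changes was not tested. TPM keep no depth, so what depth limits cannot be given.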
